A study of Mus musculus with 9 samples.

Results

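The glucocorticoid receptor Nr3c1, the mineralocorticoid receptor Nr3c2 and 8 genes that respond to corticosteroids (Fkbp5, Sgk1, Tsc22d3, Hif3a, Zbtb16, Plin4, Pdk4 and Errfi1) were examined in the hippocampus of mice that express a mutant BRAF in the neural lineage. The 10 genes and the further lists were chosen by name, with earlier results of these data known. The 10 are among the 18275 genes in the deposited table. Nr3c1, Plin4 and Pdk4 lay below the range of the controls in every mutant library, with log2 differences of -0.21, -1.10 and -0.15, where 15.7% of all genes tested had groups that did not overlap. None of the 10 genes reached an adjusted p under 0.05 in limma, which 2.88% of all genes tested did, and 3 had an unadjusted p under 0.05, which 18.5% did. Fkbp5, Tsc22d3, Hif3a, Zbtb16, Errfi1, Sgk1 and Nr3c2 had overlapping values in the mutant and control libraries. Among 20 further corticosteroid response genes, Mt1, Mt2, Fam107a and Rasd1 were higher in the mutants at an adjusted p under 0.05, and none was lower. Without mutant replicate 1 none of the 20 passed.

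RNA was sequenced from whole hippocampus of adult male C57BL/6N mice. The 4 Nestin;BrafKE/+ libraries came from mice heterozygous for BRAF K499E, a mutation found in RASopathies, developmental disorders caused by an overactive RAS-ERK pathway. The floxed allele was switched on by Nestin-Cre, which acts in neural stem cells from embryonic life, so the neurons, astrocytes and oligodendrocytes made from them carry the mutant allele, whereas microglia and blood vessels arise from other lineages. The 5 control libraries were from Braf+/+ littermates, and whether these carried Nestin-Cre is not given in the sources used here. The library names fall into 3 series, with 1 mutant and 3 controls in series A, 2 mutants and 1 control in series B, and 1 of each in series C. Series A joins 2 of the 4 name prefixes. Control replicates 1 and 2 share 1 of them, and mutant replicate 1 and control replicate 3 share the other. What the series stand for is not stated. Mutant replicate 1 is the only mutant of series A, control replicate 4 the only control of series B, and mutant replicate 4 and control replicate 5 make up series C, so a fit with a series term and without one of these libraries takes the genotype difference from the other series alone. Each replicate is taken as 1 mouse, although the labels do not say so, and the p-values measure the spread between these libraries.

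Corticosterone, the main glucocorticoid of mice, enters the brain and binds both receptors. The mineralocorticoid receptor binds it with high affinity and is held largely occupied at resting hormone levels, whereas the glucocorticoid receptor fills at the daily peak and under stress. The hippocampus is one of the brain regions richest in both. Once bound, a receptor leaves its chaperones, enters the nucleus and binds glucocorticoid response elements, which are pairs of inverted half-sites. The products of the induced genes include Fkbp5, a co-chaperone that lowers the affinity of the receptor for its hormone, the kinase Sgk1, and Tsc22d3 (also called GILZ), which restrains inflammatory transcription. Hif3a is a hypoxia-inducible factor subunit, Zbtb16 (PLZF) a zinc-finger transcriptional repressor, Plin4 a coat protein of lipid droplets, Pdk4 a kinase that inhibits pyruvate dehydrogenase, and Errfi1 (MIG6) a feedback inhibitor of the EGF receptor family.

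The sequences before 3 of the start sites are shown because they differ in whether they hold such an element. RefSeq promoter windows of GRCm38.p6, each from 250 bases before to 50 bases after a start site, were at hand for 8 of the 10 genes, in 16 windows. Nr3c1 and Zbtb16 had no entry. The element searched was the half-site AGAACA, any 3 bases and then TGTTCT, which is the same on both strands. It was complete in 3 of 32851 windows of all genes (0.00913%) and in 1 of the 16 windows, one of several of Sgk1. Below are the 250 bases before the start site, 5′ to 3′ on the strand of the gene, with the complete element in capitals. Each was matched to a single place on the strand and chromosome of its gene in GRCm39, for Sgk1 chr10:21869539-21869788 (plus strand), for Plin4 chr17:56416783-56417032 (minus strand) and for Fkbp5 chr17:28705124-28705373 (minus strand). Other chromosomes were not searched.
Sgk1: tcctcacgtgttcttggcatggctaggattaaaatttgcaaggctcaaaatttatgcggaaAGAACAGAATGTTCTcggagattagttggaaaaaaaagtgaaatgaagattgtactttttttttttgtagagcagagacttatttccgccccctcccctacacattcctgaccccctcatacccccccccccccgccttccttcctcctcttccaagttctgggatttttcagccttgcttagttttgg
Plin4: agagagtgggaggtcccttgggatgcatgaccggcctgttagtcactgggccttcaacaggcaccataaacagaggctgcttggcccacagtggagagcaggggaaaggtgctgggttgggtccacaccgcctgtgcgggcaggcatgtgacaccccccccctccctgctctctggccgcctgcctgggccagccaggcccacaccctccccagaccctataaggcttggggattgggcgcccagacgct
Fkbp5: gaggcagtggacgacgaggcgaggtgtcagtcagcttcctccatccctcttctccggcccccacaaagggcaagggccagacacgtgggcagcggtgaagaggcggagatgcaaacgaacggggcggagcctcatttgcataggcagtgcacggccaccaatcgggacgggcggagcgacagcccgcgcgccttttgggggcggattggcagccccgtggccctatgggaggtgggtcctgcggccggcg
The Sgk1 element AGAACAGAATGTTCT spans the bases 189 to 175 before the start, at positions 21869600 to 21869614 of chromosome 10, inside the annotated Sgk1 gene and outside its exons. The same window held 3 half-sites, including the pair that forms the element, a number reached by 0.310% of all windows. The best match differed from the element at 5 bases for Plin4 and at 6 for Fkbp5, and neither stretch held a half-site. At least 1 half-site, AGAACA or TGTTCT, was found in 4 of the 16 windows, 3 of Sgk1 and 1 of Tsc22d3, and in 19.0% of all windows. These are matches of letters in short windows, and response elements can lie far from a start site.

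Nr3c1 encodes the glucocorticoid receptor (chr18:39543598-39652474 in GRCm39). Its normalised signal, the deposited normalised count after the authors' scaling, was 1607, 1427, 1507 and 1603 in mutant replicates 1 to 4, and 1685, 1746, 1807, 1943 and 1699 in control replicates 1 to 5. The 4 mutant libraries lay below the 5 controls, and the margin between the highest mutant and the lowest control was small. The means were 1536 ± 86.5 (SD, n = 4) and 1776 ± 105 (SD, n = 5). On the log2(value + 1) scale the difference was -0.21 (SE 0.07, 95% interval -0.36 to -0.06), with an unadjusted p of 0.00983 and an adjusted p of 0.129 in limma over 16196 genes. Series A had -0.12, series B -0.41 and series C -0.08. The exact two-sided permutation test of the genotype labels gave p = 0.00794 over all 9 libraries and p = 0.0417 when labels were exchanged only inside a series, which are the lowest p-values this design can reach. These p-values are not adjusted over genes, and groups without overlap give the lowest p or the next over all libraries. Without control replicate 4, and so without a contribution from series B, the difference was -0.10 (adjusted p = 0.511). Without a term for the series it was -0.21 (adjusted p = 0.0236).

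Nr3c2 encodes the mineralocorticoid receptor (chr8:77625576-77971863). Its signal was 3080.1, 3148, 3237 and 3392 in the mutants, and 3658, 3339, 3191, 3389.6 and 3171 in the controls. The groups overlapped, with only mutant replicates 1 and 2 below all controls. The means were 3214 ± 135 (SD, n = 4) and 3349.6 ± 196 (SD, n = 5), a log2 difference of -0.06 (SE 0.06, 95% interval -0.19 to 0.07, limma adjusted p = 0.647). Series C went the other way, at 0.10, against -0.14 in series A and -0.09 in series B. The span of Gm23260 overlaps that of Nr3c2 on the same strand, and whether their exons overlap was not examined.

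The balance of the receptors within a library does not depend on how that library was scaled. The Nr3c2 signal divided by that of Nr3c1 was 1.92, 2.21, 2.15 and 2.12 in the mutants and 2.17, 1.91, 1.77, 1.74 and 1.87 in the controls. Mutant replicates 2 to 4 and control replicate 1 formed the upper end of the range, and mutant replicate 1 lay at the level of control replicate 2. The mean ratio was 2.10 ± 0.126 (SD, n = 4) against 1.89 ± 0.171 (SD, n = 5). The log2 difference was 0.15, beside log2 SDs of 0.09 in the mutants and 0.13 in the controls, and did not pass the test, with p = 0.0873 in the exact two-sided permutation test over all libraries and p = 0.167 inside series. Series A had -0.02, series B 0.32 and series C 0.18. Leaving out control replicate 1 gave 0.20 (exact permutation p = 0.0286). Leaving out any other single library gave an exact permutation p from 0.0893 to 0.196.

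**Figure D1:**
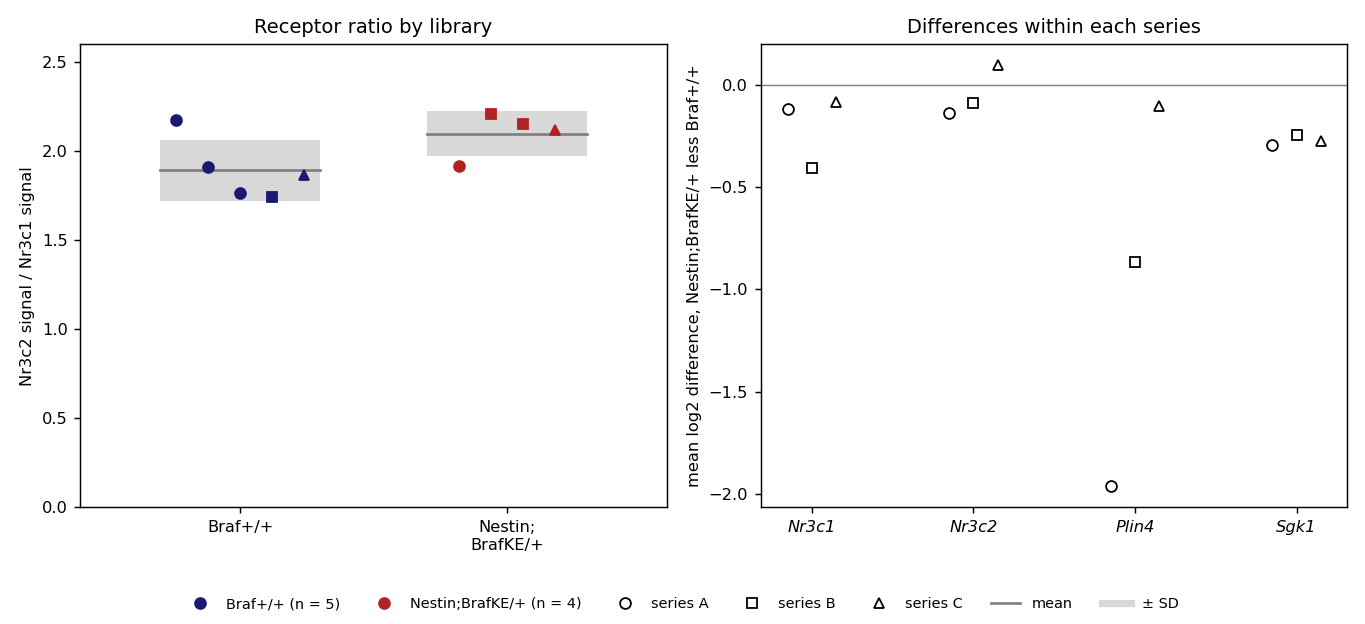
Left, ratio of the normalised signals of Nr3c2 and Nr3c1 in each library, with group mean (line) and SD (grey band). Right, mean log2 difference between mutant and control libraries within each series for Nr3c1, Nr3c2, Plin4 and Sgk1. The ratio of mutant replicates 2 to 4 lies between 2.12 and 2.21, and the Plin4 difference runs from -1.96 in series A to -0.10 in series C.

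Plin4 showed the widest separation of the response genes (chr17:56406617-56416931). Its signal was 49.2, 105, 64.9 and 111 in the mutants and 229.5, 223, 144, 152 and 119 in the controls. All mutants were below all controls, with mutant replicate 4 (111) close to control replicate 5 (119), the pair that makes up series C. The means were 82.5 ± 30.2 (SD, n = 4) and 174 ± 49.7 (SD, n = 5). The log2 difference was -1.10 (SE 0.30, 95% interval -1.76 to -0.43), with an unadjusted p of 0.00391 and an adjusted p of 0.0815 in limma. It shrank from -1.96 in series A through -0.87 in series B to -0.10 in series C. The exact two-sided permutation p was 0.0159 over all libraries and 0.0417, the lowest possible, inside series. The call turned on which series contributed. The difference was -1.45 without mutant replicate 4 (adjusted p = 0.0402) or without control replicate 5 (adjusted p = 0.0398), each of which removes series C, and -0.54 without mutant replicate 1 (adjusted p = 0.397), which removes series A. With no series term it was -1.09 (adjusted p = 0.0194).

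Pdk4 was the steadiest of the response genes (chr6:5483097-5496339). Its signal was 214, 212, 227 and 223 in the mutants and 234, 251, 247, 242 and 237 in the controls. The groups did not overlap, and the highest library exceeded the lowest by 1.19-fold. The means were 219 ± 7.26 (SD, n = 4) and 242 ± 6.79 (SD, n = 5), a log2 difference of -0.15 (SE 0.09, 95% interval -0.35 to 0.06). In limma the unadjusted p was 0.138 and the adjusted p 0.434. The test draws the spread of each gene towards that of genes of similar level, and Pdk4 varied less than most of them. Its coefficient of variation over the controls was 2.80%, against a median of 9.18% for the 4154 genes within 2-fold of its mean, of which 1.88% varied less. The difference was -0.19, -0.14 and -0.09 in series A, B and C, and the exact two-sided permutation p was 0.00794 over all libraries and 0.0417 inside series, again the lowest possible. Groups without overlap give the lowest p or the next over all libraries, and 15.7% of all genes tested had such groups.

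Sgk1, of which one start site follows the element shown above, had a signal of 1556, 1450.4, 1736 and 1575 in the mutants and 1958, 2304, 1543, 1879 and 1906 in the controls (chr10:21758083-21875802). Control replicate 3 lay among the mutants, and the other 4 controls lay above all of them. The means were 1579.5 ± 118 (SD, n = 4) and 1918 ± 271 (SD, n = 5). The log2 difference of -0.27 (SE 0.11, 95% interval -0.51 to -0.03) had an unadjusted p of 0.0304 and an adjusted p of 0.214 in limma. It was of like size in the series, at -0.30, -0.24 and -0.27 in A, B and C. By the exact two-sided permutation test p was 0.0635 over all libraries and 0.125 inside series. Without control replicate 3 the difference was -0.33 (adjusted p = 0.0747).

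Errfi1, the receptor feedback inhibitor, had a signal of 713, 827, 779.7 and 733 in the mutants and 878, 842, 785, 735 and 849 in the controls (chr4:150938376-150955402). The groups overlapped. The means were 763 ± 50.8 (SD, n = 4) and 818 ± 57.3 (SD, n = 5), and the log2 difference was -0.10 (SE 0.08, 95% interval -0.28 to 0.08, limma adjusted p = 0.554). Series B (0.13) went against series A (-0.23) and series C (-0.21).

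The co-chaperone gene Fkbp5 had a signal of 1229, 1677, 1321 and 1412 in the mutants and 1467, 1397, 1372, 1197 and 1342 in the controls (chr17:28618058-28737521). The mutants spread wider than the controls and enclosed all but 1 of them, control replicate 4. The log2 difference was 0.05 (SE 0.10, 95% interval -0.17 to 0.27, limma adjusted p = 0.832), between means of 1409.6 ± 193 (SD, n = 4) and 1355 ± 99.5 (SD, n = 5). The sign was not shared, with -0.20 in series A against 0.31 and 0.07 in the others, and it turned to -0.02 without mutant replicate 2 and to -0.09 without control replicate 4. Gm49838 and Gm49839 overlap Fkbp5 on the same strand.

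Tsc22d3 had a signal of 1419, 1634, 1668 and 1664 in the mutants and 1457, 1779, 1511, 1414 and 1454 in the controls (chrX:139440091-139501408, overlapped on the same strand by Gm53027). In each group a single library stood apart, mutant replicate 1 on the low side and control replicate 2 on the high side. The means were 1596 ± 119 (SD, n = 4) and 1523 ± 147 (SD, n = 5), a log2 difference of 0.07 (SE 0.09, 95% interval -0.12 to 0.26, limma adjusted p = 0.716). Within the series it was -0.15, 0.22 and 0.19.

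The repressor gene Zbtb16 showed the same mutant library apart from its group (chr9:48563141-48748664, overlapped on the same strand by Gm68109). The signal was 789, 1119.6, 1097 and 1092 in the mutants and 1142, 1263, 1199, 925 and 1027 in the controls. The means were 1024 ± 157 (SD, n = 4) and 1111 ± 136 (SD, n = 5), with a log2 difference of -0.12 (SE 0.13, 95% interval -0.41 to 0.17, limma adjusted p = 0.663). Without mutant replicate 1 the difference turned to 0.19 (adjusted p = 0.302). The series gave -0.60, 0.26 and 0.09.

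Hif3a, at 100.4, 146, 179.7 and 202 in the mutants and 223, 234, 109.5, 138 and 117 in the controls, varied about as much within a group as over all libraries (chr7:16764918-16796352). Its means were 157 ± 44.4 (SD, n = 4) and 164 ± 59.6 (SD, n = 5), and the log2 difference was -0.04 (SE 0.30, 95% interval -0.70 to 0.62, limma adjusted p = 0.964). The interval is wide enough to hold a difference larger in either direction than that of Sgk1. Series A gave -0.83, series B 0.23 and series C 0.78. In series A, mutant replicate 1 (100.4) and control replicate 3 (109.5) share a name prefix.

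**Figure D2:**
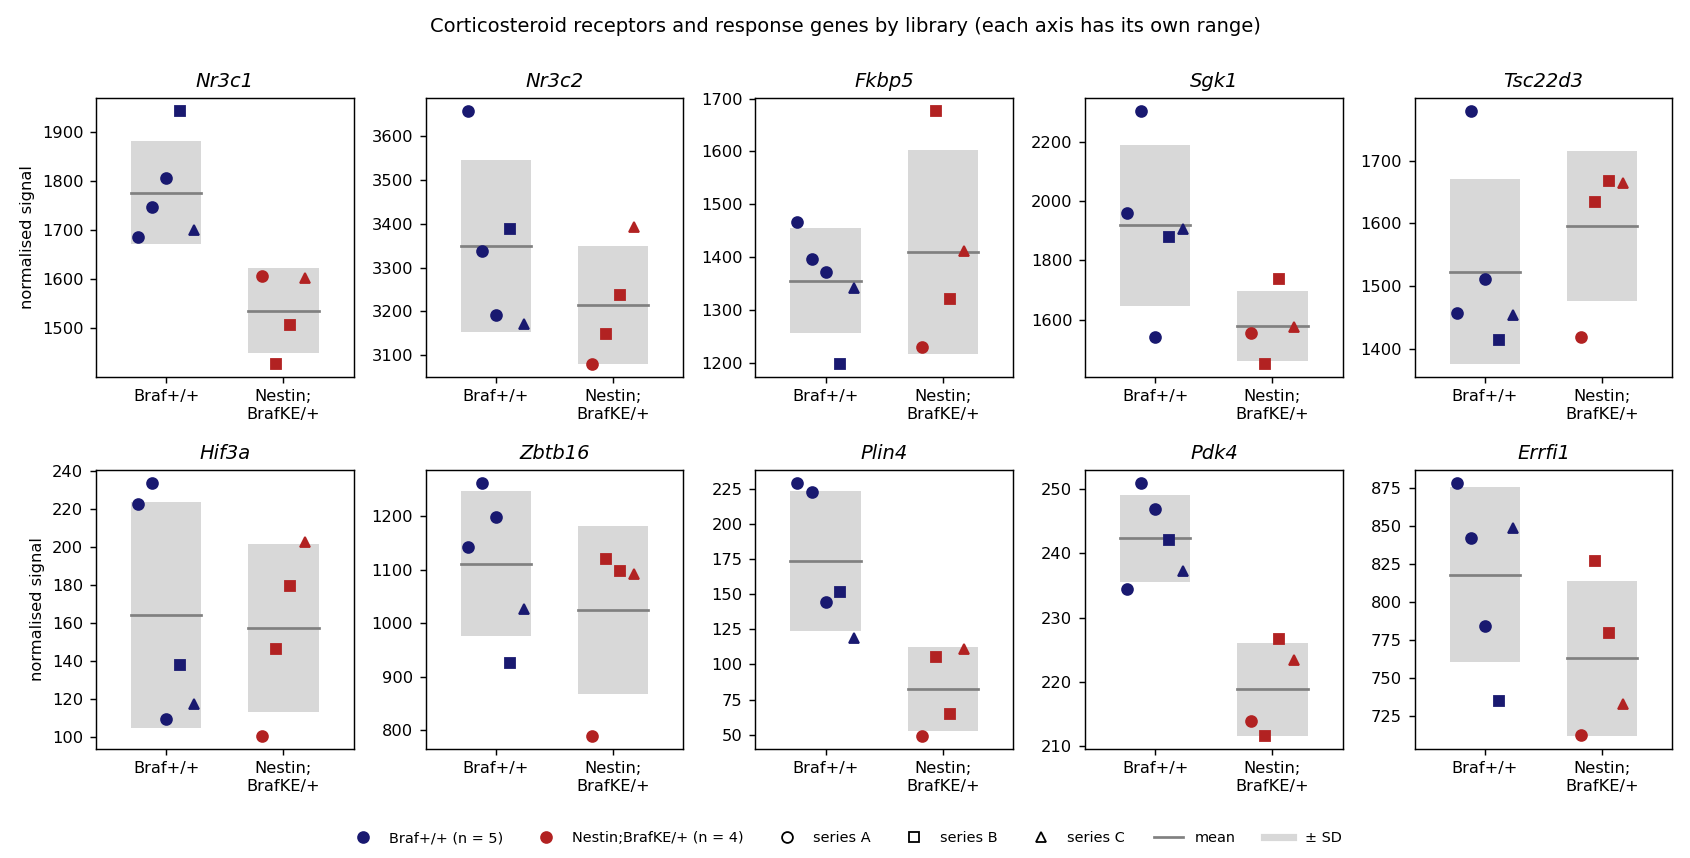
Normalised signal of the 2 receptors and the 8 response genes in each library, 1 panel per gene, with group mean (line) and SD (grey band). Symbols give the series of library names, and each axis has its own range and does not start at 0. The groups do not overlap for Nr3c1, Plin4 and Pdk4.

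Set beside the whole table, the counts for the 10 genes were as follows. None passed an adjusted p of 0.05, while 466 of 16196 genes tested did (2.88%), 246 higher and 220 lower in the mutants. Nr3c1, Sgk1 and Plin4 had an unadjusted p under 0.05, 3 of 10, where 18.5% of all genes did. Nr3c1, Plin4 and Pdk4 had groups that did not overlap, 3 of 10, where 15.7% of all genes did. These 3 were lower in the mutants, and 8.13% of all genes had groups without overlap in that direction. Of the 8 response genes, 6 had a negative difference and 2, Fkbp5 and Tsc22d3, a positive one, with a median of -0.11 on the log2 scale against 0.000334 over all genes tested. The median absolute difference over all genes was 0.12.

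**Figure D3:**
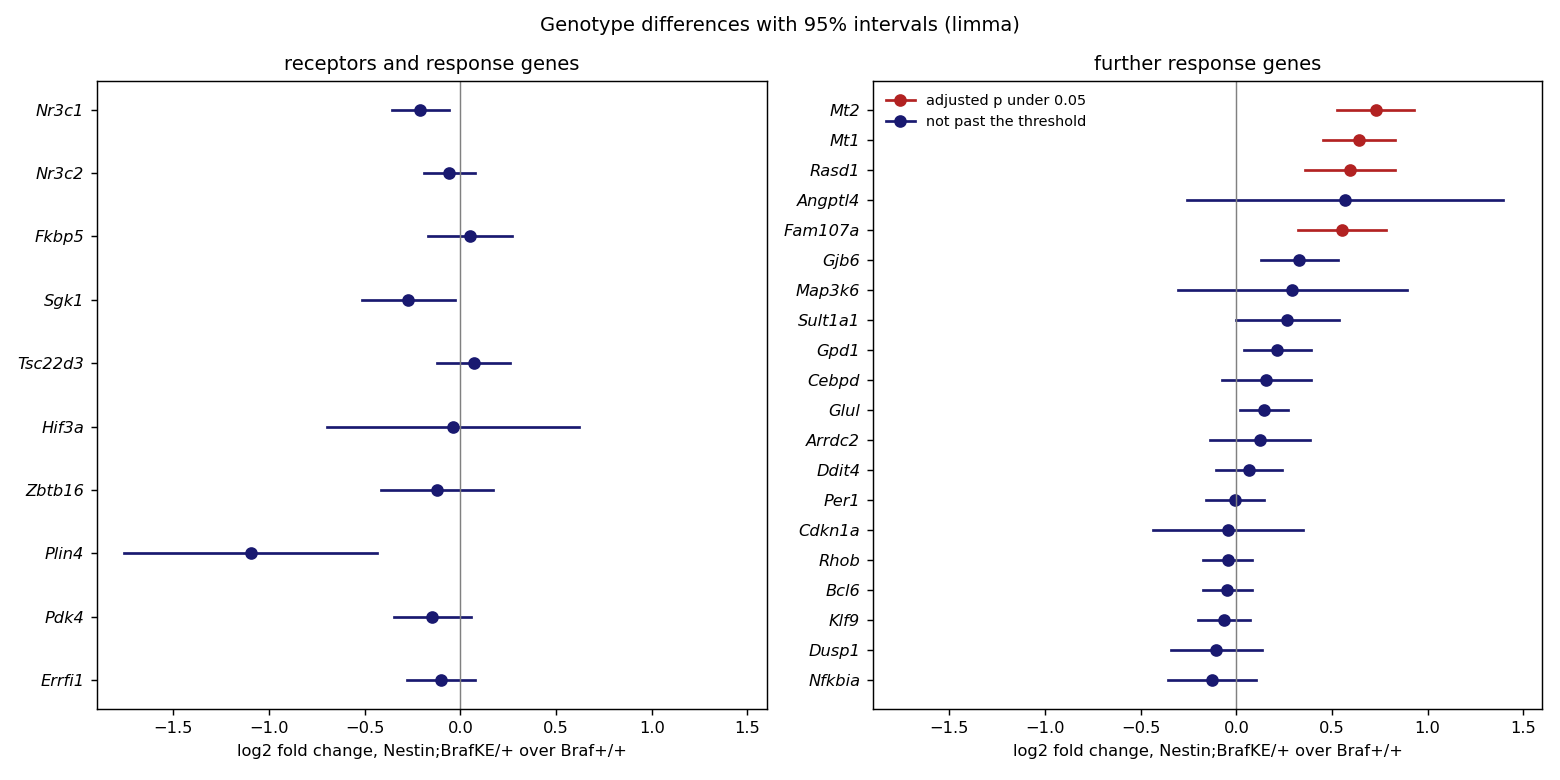
Log2 fold change of Nestin;BrafKE/+ over Braf+/+ (x axis) with its 95% interval from limma, for the receptors and response genes (left) and for the 20 further response genes (right). Red marks an adjusted p under 0.05 over all genes, which only Mt2, Mt1, Rasd1 and Fam107a reach, at 0.55 to 0.73.

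Levels were divided by the kilobases of all annotated exons of a gene merged. This length can exceed that of the RNA expressed, so the order of the genes is approximate. Nr3c2 was the highest of the 10 in the controls, with a mean of 392 ± 23.0 (SD, n = 5). Sgk1 followed at 319 ± 45.0, Tsc22d3 at 246 ± 23.8 and Nr3c1 at 225 ± 13.3, and each of these neighbours overlapped in the control libraries. A second tier held Errfi1 at 138 ± 9.69, Fkbp5 at 122 ± 8.99 and Zbtb16 at 118 ± 14.4, which did not differ beyond their spread. Pdk4 (63.9 ± 1.79) stood below them, and Plin4 (21.7 ± 6.22) and Hif3a (21.5 ± 7.79) were lowest and overlapped. In the mutants Nr3c2 (376 ± 15.7, n = 4) no longer overlapped Sgk1 (263 ± 19.6), and Tsc22d3 (258 ± 19.3) no longer overlapped Nr3c1 (195 ± 11.0).

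The response genes differed in how much they varied between libraries. The fold between the highest and the lowest library was 4.67 for Plin4 and 2.33 for Hif3a. The coefficient of variation of each gene was set beside those of genes within 2-fold of its mean. Hif3a exceeded 97.9% of them in the controls and 96.1% in the mutants, Plin4 94.8% and 97.5%, Zbtb16 93.8% and 97.6%, and Sgk1 97.9% and 82.1%. For Tsc22d3 the shares were 89.0% and 81.2%, and for Fkbp5 72.1% and 97.3%. Errfi1 (58.2% and 63.2%) stood near the middle, as did the receptors Nr3c1 (57.8% and 62.7%) and Nr3c2 (65.5% and 48.6%), and Pdk4 was low in both groups (1.88% and 7.29%).

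The same few libraries lay at the ends. Mutant replicate 1 was the lowest of the 9 libraries for Hif3a, Zbtb16, Plin4 and Errfi1, 4 of the 8 response genes. Control replicate 2 was the highest for Sgk1, Tsc22d3, Hif3a, Zbtb16 and Pdk4, 5 of the 8. The mean of the 8 log2 deviations, each taken from the mean of the gene over all libraries, was -0.38 in mutant replicate 1, and 0.24 and 0.32 in control replicates 1 and 2, which are all of series A. In the other 6 libraries it lay between -0.08 and 0.02. Among them was control replicate 3, the only control with the name prefix of mutant replicate 1, at -0.02. The difference between the groups in this mean was therefore -0.56 in series A, -0.01 in series B and 0.06 in series C. Plin4 and Hif3a, the genes that varied most, weighed most in these 3 libraries of series A. Plin4 deviated by -1.26 in mutant replicate 1, and by 0.93 and 0.89 in control replicates 1 and 2. Hif3a deviated by -0.61, 0.53 and 0.60 in the same libraries.

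**Figure D4:**
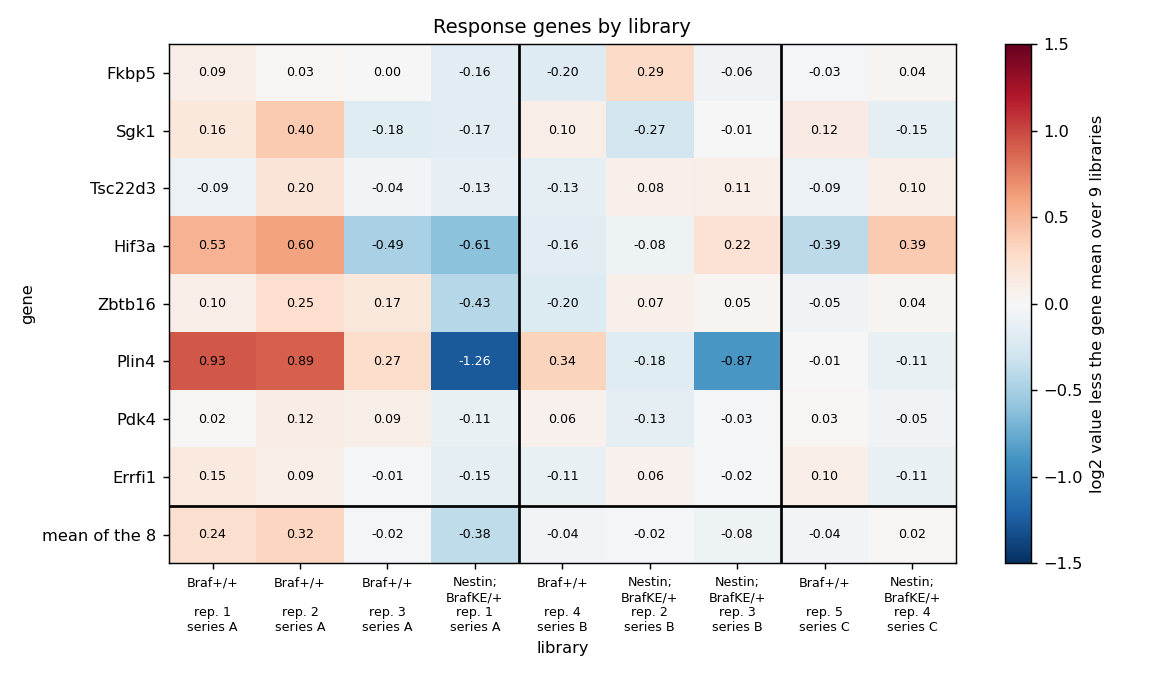
Log2 signal of the 8 response genes (rows) in the 9 libraries (columns, ordered by series), each less the mean of the gene over all libraries, with the mean of the 8 genes in the last row. Red is above and blue below the mean of the gene. The extremes of the last row, -0.38 and 0.32, are both in series A.

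Over the 9 libraries 26 of the 28 pairs of response genes were positively correlated, with a median Pearson r of 0.48, or 0.45 after the genotype means were subtracted. The pairs share their libraries and are not independent. Plin4 and Pdk4 had the largest correlation (r = 0.72, exact permutation p = 0.0281, adjusted over 28 pairs p = 0.214), with Spearman rho = 0.733 (exact permutation p = 0.0311, adjusted p = 0.311). It held at r = 0.70 without the 2 libraries farthest from the median of Plin4 but was 0.08 after subtraction of the genotype means. Tsc22d3 and Zbtb16 (r = 0.67, exact permutation p = 0.0396, adjusted p = 0.214, rho = 0.683, exact permutation p = 0.0503, adjusted p = 0.311) had r = 0.56 without 2 libraries and r = 0.84 after the subtraction. Fkbp5 and Pdk4 had the lowest, at -0.29. None of the 28 pairs reached an adjusted p of 0.05 by either measure. Within a series there were at most 4 libraries, too few for a correlation.

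The genes outside the 8 whose pattern was most like their mean, among genes with a mean signal of at least 50 and once genotype and series were fitted, were Lrig1 (residual r = 0.995), Zfp850 (0.992), Galnt15 (0.991), Eps8 (0.989) and Ackr3 (0.986). The response genes themselves had residual r of 0.93 (Hif3a), 0.91 (Plin4), 0.82 (Zbtb16), 0.81 (Tsc22d3), 0.66 (Fkbp5), 0.60 (Errfi1), 0.50 (Sgk1) and 0.29 (Pdk4). Each of these 8 is part of the mean it was compared with, which raises its r, most for the genes that vary most. The residuals come from 9 libraries less the fitted terms, and the 5 genes are the highest of all those compared, so the values describe these libraries only.

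Of the 20 further response genes, 4 rose in the mutants and none fell (adjusted p under 0.05 in limma, against 2.88% of all genes in either direction). In the list 7 genes, all higher, had an unadjusted p under 0.05, against 18.5% of all genes. The list was chosen with earlier results of these data known, so these counts are a description and not a test. The 4 past the threshold were the metallothioneins Mt1 and Mt2, which bind zinc and copper, Fam107a, an actin-binding protein also named DRR1, and Rasd1, a dexamethasone-induced small GTPase. Mt1 was 4774, 5093, 5148 and 4367 in the mutants and 2959, 3443, 2962, 2768 and 3437 in the controls (log2 difference 0.64, SE 0.09, adjusted p = 0.00480). Mt2 was 2390.4, 2135, 2404 and 1956 against 1233, 1424, 1249, 1274 and 1510.3 (0.73, SE 0.09, adjusted p = 0.00362). For both, every mutant was above every control.

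Fam107a was 12309, 10395, 11354 and 8998 in the mutants and 6960.2, 7188, 6732, 7073 and 8677 in the controls (log2 difference 0.55, SE 0.10, limma adjusted p = 0.0214). Control replicate 5 came close to mutant replicate 4, the other library of series C, where the difference was 0.05 against 0.82 in series A and 0.62 in series B. Rasd1 was 943, 945, 1179 and 994 against 770.0, 585, 711, 615 and 681 (0.59, SE 0.11, limma adjusted p = 0.0177), and its groups did not overlap. Without mutant replicate 1 none of the 4 genes passed, at differences of 0.66 for Mt1 (adjusted p = 0.0571), 0.63 for Mt2 (0.0593), 0.68 for Rasd1 (0.0742) and 0.38 for Fam107a (0.157). Without control replicate 4, Mt1 (0.51) and Mt2 (0.68) passed and Fam107a (0.51) and Rasd1 (0.50) did not. Fam107a was at 0.53 without mutant replicate 3 (adjusted p = 0.0657). With the 4 prefixes of the library names in place of the series, Fam107a (0.52, adjusted p = 0.0695) and Rasd1 (0.60, adjusted p = 0.0519) did not pass.

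The remaining 16 did not pass, 9 with a positive and 7 with a negative difference, down to -0.13 for Nfkbia (adjusted p = 0.551), the inhibitor of NF-kappa-B. The median over the 20 was 0.15 on the log2 scale, against -0.11 for the 8 response genes above. The 20 genes are a mixed list, and several of them are also driven by other signals, such as metals for the metallothioneins.

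Genes for proteins that fold, assist and supply the receptors were read against the same shares of all genes tested, 2.88% past the threshold and 18.5% with an unadjusted p under 0.05. None of 8 chaperone genes passed and none had an unadjusted p under 0.05, with differences from -0.09 for Stip1 (adjusted p = 0.405) to 0.06 for Bag1 (adjusted p = 0.668). None of 8 coregulator genes passed, and 3 had an unadjusted p under 0.05. Ep300, an acetyltransferase coactivator, was the highest at 0.26 (SE 0.07, adjusted p = 0.0893), with mutants at 1484, 1535, 1599 and 1456 and controls at 1358, 1338, 1145, 1190.1 and 1323, and Ncoa1, the steroid receptor coactivator SRC-1, was the lowest at -0.16 (SE 0.06, adjusted p = 0.199). Of the steroid metabolism and transport genes 4 of 5 were tested and none passed or had an unadjusted p under 0.05, from 0.01 for H6pd (SE 0.14) to 0.13 for the drug and steroid exporter gene Abcb1a (adjusted p = 0.481). Gm55386 and Gm22067 overlap Ep300, Gm69401 overlaps H6pd and Gm42684 overlaps Abcb1a on the same strand.

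Of 3 genes of the corticotropin-releasing hormone system, which governs the release of glucocorticoids, 1 rose and none fell at an adjusted p under 0.05. Of all genes tested 2.88% passed, and 15.7% had groups that did not overlap. Crhbp, which encodes the binding protein that sequesters the hormone, was 746, 801, 754 and 646 in the mutants and 489, 518, 525, 459 and 584 in the controls (log2 difference 0.52, SE 0.10, limma adjusted p = 0.0210). The groups did not overlap, and series C had the smallest difference (0.14 against 0.55 in series A and 0.76 in series B). Crhr1, the main receptor of the hormone, was 122, 135, 142 and 129 against 179, 184, 205, 168 and 189, also without overlap, but its difference of -0.48 (SE 0.12) had an adjusted p of 0.0562. Crhr1 was lower in all 3 series, at -0.62, -0.28 and -0.55. It passed with a minimum mean of 50 (adjusted p = 0.0499), with no series term (0.00395) and with a replicate block (0.0247). Crhbp was at 0.49 without mutant replicate 1 (adjusted p = 0.132), at 0.50 without mutant replicate 3 (adjusted p = 0.0648) and at 0.39 without control replicate 4 (adjusted p = 0.133). With the 4 prefixes of the library names in place of the series Crhbp was at 0.50 (adjusted p = 0.0655). Without control replicates 2 and 4 it was at 0.38 (adjusted p = 0.193).

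Markers of the cell types in the dissection were read beside these results. Of all genes tested, 2.88% passed the threshold, 18.5% had an unadjusted p under 0.05 and 15.7% had groups without overlap. The 8 oligodendrocyte markers were all higher in the mutants, 4 of them past the threshold, and their summed signal was 121699 to 131226 in the mutants and 88547 to 107138 in the controls, without overlap. Of the 7 astrocyte markers 5 were higher and 2 passed. These 2 were Gfap (log2 difference 0.68, limma adjusted p = 0.00576) and Aldoc (0.35, adjusted p = 0.0106), both without overlap. The sums over the 7 markers, 108707 to 122207 in the mutants and 102162 to 115871 in the controls, overlapped. The most abundant of them was Slc1a2, whose mean was 63194 in the mutants and 65668 in the controls. The mean log2 deviation of the 7 markers, which weights them equally, was 0.08 to 0.20 in the mutants and -0.15 to -0.05 in the controls, without overlap, and its difference was 0.27 in series A, 0.30 in series B and 0.13 in series C. The 6 choroid plexus markers were all lower, none passed and 1 had an unadjusted p under 0.05, but their sum ran from 1372 to 24210 in the mutants and from 4430 to 113108 in the other controls and stood at 391030 in control replicate 2, the library highest for 5 response genes. The 6 endothelial markers had 4 higher and none with even an unadjusted p under 0.05 (sums of 3754 to 4162 and 3558 to 4577). Markers were higher for 4 of 6 excitatory neuron, 5 of 6 inhibitory neuron, 5 of 6 microglia and 5 of 5 blood genes, with 1 past the threshold, the excitatory neuron gene Wfs1. No marker of the 8 lists was at 0, among them Prox1, which marks granule cells of the dentate gyrus. In whole tissue, fewer cells of a type and less RNA per cell cannot be told apart, and the part of these markers in the results above was not tested. With control replicates 2 and 4 left out, the libraries highest in choroid plexus markers, none of the 10 genes passed, Nr3c1 was at -0.10 (adjusted p = 0.562), Plin4 at -1.11 (adjusted p = 0.292), and of the 20 further response genes 1, Mt1, passed (0.54, adjusted p = 0.0356). Mt2 was then at 0.70 (adjusted p = 0.0598), Fam107a at 0.51 (adjusted p = 0.193) and Rasd1 at 0.43 (adjusted p = 0.147), with 3 controls left.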

How the data were processed

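Hippocampal RNA (TruSeq stranded mRNA) was sequenced in 4 Nestin;BrafKE/+ and 5 Braf+/+ libraries. The authors used TrimGalore for trimming, STAR for alignment (GRCm39) and Salmon for quantification, adjusted for unnamed batches and scaled with DESeq2. The deposited values are these normalised counts, treated as a signal. In every library 100% of them were whole multiples of 1 step of 0.9934 to 1.004 (tolerance 0.01), but mt-Co1 had the same multiple, 491938, in each of the 9, so they are not sequenced reads. No count model was used, and the depth is unknown. Library totals ran from 19551312 to 20091532.

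Genes with a mean of at least 10 (16196 of 18275) were fitted as log2(value + 1) with limma 3.58.1 in R 4.3.3, with a variance trend, genotype and series of library names. A fold change on this scale understates that of low genes. P-values are two-sided, with Benjamini-Hochberg adjustment over all genes and a threshold of 0.05. Exact permutation tests used every assignment of the genotype labels, over all libraries or inside series. Correlations used all 362880 pairings. On simulated data the fit was tested before use. Coordinates, exon lengths and overlaps of whole gene spans are from Gencode vM39. The 10 genes and all lists were chosen with earlier results of these data known. Named genes are the 10, of each pathway list those past the threshold with its highest and lowest difference, and the 5 most alike. The human spheroid libraries of the study were not analysed here. Alternatives were another pseudocount, filter, scaling, series term, weights, robust variance, a replicate block and each library left out.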

Additional observations from a re-analysis of the deposited data

Results flagged for a closer look

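In 5 of 48 groups of values tested a single library lay far from the rest of its own group, by the gap to its neighbour over the range of the group (Dixon's test at 95%). Chance gives about 1 in 20. Tsc22d3 was 1418.57 in mutant replicate 1, with the other mutants between 1634 and 1668, and 1779.27 in control replicate 2, with the other controls between 1414 and 1511. Zbtb16 was 789.1 in mutant replicate 1, against 1092 to 1119.6 in the other mutants. Fam107a was 8677.33 in control replicate 5, against 6732 to 7188 in the other controls. Abcb1a was 746.115 in control replicate 2, above the other controls.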

How the results depend on the processing

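The depth behind the values is unknown, and the group sizes limit what can be seen. The number of genes called over the whole table was 466, and became 2260 with no series term, 165 with the 4 name prefixes in place of the series, 258 with array weights, and 42 to 369 with each library left out (42 without mutant replicate 1, 97 without control replicate 4, 165 without mutant replicate 3 and 281 without control replicate 1). It was 58 without control replicates 2 and 4, a choice made after seeing the data. Of the 10 genes 0 passed, and 2 (Nr3c1 and Plin4) with no series term, and 0 to 1 (Plin4) with each library left out. Of the 20 further response genes 4 passed, 0 to 4 with each library left out, and 1 without control replicates 2 and 4. The log2 difference of the receptor ratio was 0.12 to 0.20 with each library left out.

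The sign turned for Fkbp5 (-0.0906 to 0.21 with each library left out, -0.0869 without control replicates 2 and 4), Tsc22d3 (-0.0135 to 0.21), Hif3a (-0.33 to 0.47, and 0.29 with the 4 name prefixes), Zbtb16 (-0.33 to 0.19) and H6pd (-0.043 to 0.087, and -0.0091 with the prefixes). The differences of Nr3c1, Nr3c2, Sgk1, Plin4, Pdk4 and Errfi1 kept their sign in all 21 alternatives. Causes were not tested.

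The replicate numbers do not pair the libraries. For each gene, the log2 value of a library was taken less the mean of its own group. The correlation of these deviations between same-numbered libraries was -0.390, -0.0779, 0.0686 and 0.415, and mutant replicates 1 to 3 correlated best with another number. With a replicate block in place of the series, 8 libraries gave 1398 genes, among them 2 of the 10, Nr3c1 (-0.22, adjusted p = 0.0404) and Plin4 (-1.22, adjusted p = 0.0321), and H6pd was at -0.0011.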
